A study of Mus musculus with 8 samples.

Results

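The genes described here were listed under chloride, bicarbonate and short-chain fatty acid transport, and encode transporters, members of channel families and carbonic anhydrases. They are Slc26a3, Slc26a2, Slc9a3, Car1, Car2, Car4, Slc5a8, Slc16a1, Cftr and Clic6, chosen by name and each read from its single named probe set, so that all 10 of 10 were measured among the 19505 genes tested. Expression was measured in whole colon from 4 mice given hBD-2 (human beta-defensin 2, an antimicrobial peptide of epithelia) and 4 mice given PBS. All 8 mice were WT BALB/c recipients with graft-versus-host disease (GVHD), an attack on host tissue by the T cells of the graft. Each had been lethally irradiated and had received C57BL/6 bone marrow cells and T cells on day 0, so that the leukocytes in the tissue can stem from donor and host. Dosing was oral from day 0 to day 7, at 1.2 mg/kg for hBD-2, and the colon was removed on day 7. There was no group without the disease or without a transplant, and each mouse gave 1 array.

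In the colon, the apical exchanger Slc26a3 takes up chloride against bicarbonate while Slc9a3 takes up sodium against protons, so that the pair together absorbs salt. Carbonic anhydrases make the bicarbonate and protons that both use. Short-chain fatty acids from bacteria enter colonocytes through Slc5a8 and Slc16a1, and butyrate is the main fuel of these cells. The channel Cftr lets chloride and bicarbonate out, which drives fluid secretion.

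None of the 10 genes passed an adjusted p of 0.05 over all genes tested by limma, where 0.041% of all genes did. The largest difference was that of Clic6, which was 1.74-fold higher in hBD-2 mice, and Car4, Slc26a3 and Slc26a2 were 1.31-fold, 1.26-fold and 1.26-fold higher. These were the 4 genes of 10 with an unadjusted p under 0.05 and a higher mean in hBD-2 mice, against 5.85% of all genes, and 0 of 10 had such a p and a lower mean, against 5.98%. The median log2 difference (hBD-2 minus PBS) was 0.28 over the 10 genes and 0.012 over all genes tested. The hBD-2 and PBS mice did not overlap in 2 of the 10, Slc26a3 and Clic6, both higher in hBD-2 mice, where 2.8% of all genes were separated in that direction, and 0 were separated the other way, as 3.6% of all genes were.

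Mice 1 and 3 of the hBD-2 group differed from the remaining 6 mice over all genes, with scores of 25.2 and 25.4 on the leading principal component against -14.9 to -2.45. They were also the highest or among the highest for several of the transport genes. Without them 1 of the 10 genes, Clic6, had an unadjusted p under 0.05 with a higher mean in hBD-2 mice, against 7.35% of all genes, 0 had such a p and a lower mean, against 5.48%, and the median difference was 0.16. Values of the transport genes that these mice move by over 1.5 times are therefore given with and without them. Epithelial markers were clearly present on every array, with Cdh1 between 12.31 and 12.48 log2 units and Krt8 between 12.39 and 12.46, as whole colon would give.

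**Figure D1:**
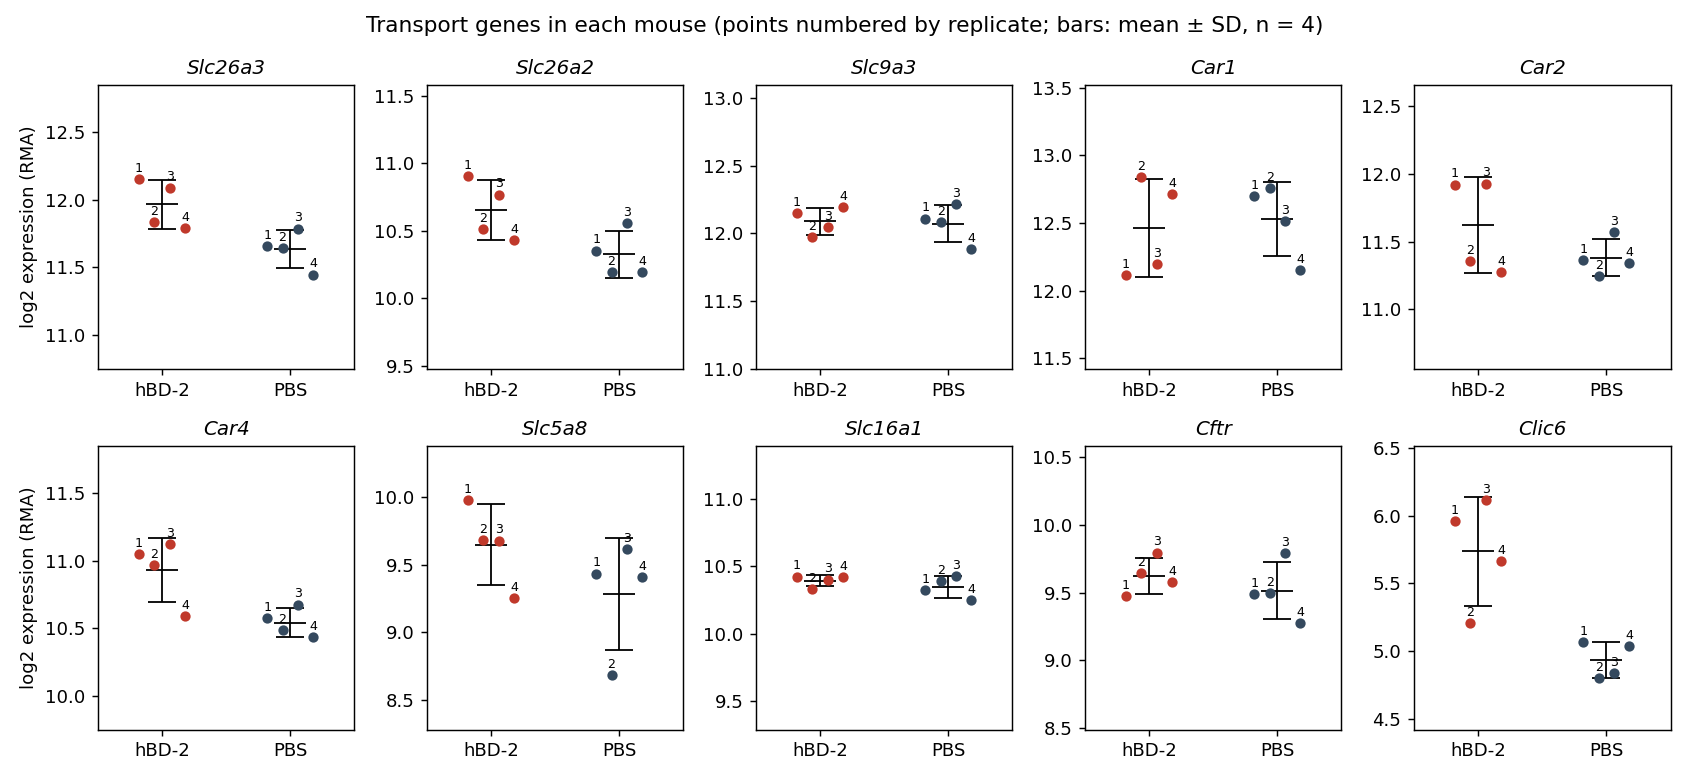
Each panel plots 1 gene as log2 expression (vertical axis, the same height in log2 units in every panel) in 4 hBD-2 mice and 4 PBS mice, with points numbered by replicate and bars for the mean ± SD. Clic6 and Slc26a3 are separated between the groups, while Slc9a3, Slc16a1 and Cftr overlap throughout.

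Slc26a3, the chloride/bicarbonate exchanger whose loss in humans causes congenital chloride diarrhoea, is shown first with the 250 bases upstream of its transcription start, because it was the separated gene with a RefSeq promoter entry. Cftr, in which the groups overlapped, is set beside it. Sequences are from RefSeq (GRCm38.p6), 5′ to 3′ on the plus strand, at chr12:31437969-31438218 for Slc26a3 and chr6:18170437-18170686 for Cftr. Capitals mark every match to one of the motifs searched on both strands.
Slc26a3: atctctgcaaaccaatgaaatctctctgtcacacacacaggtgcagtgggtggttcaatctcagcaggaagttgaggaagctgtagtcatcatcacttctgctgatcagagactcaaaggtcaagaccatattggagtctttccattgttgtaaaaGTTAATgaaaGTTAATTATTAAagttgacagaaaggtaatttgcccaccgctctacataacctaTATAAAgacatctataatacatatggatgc
Cftr: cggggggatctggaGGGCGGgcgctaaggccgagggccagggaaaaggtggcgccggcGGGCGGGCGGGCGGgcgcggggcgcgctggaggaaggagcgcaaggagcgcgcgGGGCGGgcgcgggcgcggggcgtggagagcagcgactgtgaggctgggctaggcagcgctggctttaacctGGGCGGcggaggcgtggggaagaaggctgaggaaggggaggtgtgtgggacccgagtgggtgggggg
The motifs were TATAAA (the TATA box), TTTAT (the core bound by CDX factors), GTTAAT (one arm of the HNF1 site), GTTAATNATTAA (most of the HNF1 palindrome, added after the Slc26a3 sequence had been read), CAAAGT (part of the HNF4 site) and GGGCGG (the GC box). TTTAT read on the other strand lies inside TATAAA, and GTTAAT lies inside the palindrome, so these matches are not separate. The Slc26a3 window held TATAAA 30 bases before the start, a motif found in 12.4% of 32851 promoter windows of the same length. It held GTTAAT at 2 places, 94 and 84 bases before the start (6.43% of windows have at least 1), and the second place extends to the palindrome, which 20 windows or 0.0609% contain. The Cftr window had none of these and 6 matches to GGGCGG, which 32.7% of windows hold. Promoter entries were matched for 6 of the 10 genes, and GGGCGG was in 4 of them, the others being Slc16a1, Slc5a8 and Slc9a3. TTTAT was in 2 of the 6, Slc26a3 and Slc5a8, against 37.3% of windows, and CAAAGT in 0, against 12.6%. The Car4 window held no match to any of the motifs. A match is a description of the letters only, and no factor binding was measured.

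Slc26a3 stood at 12.15, 11.83, 12.09 and 11.79 log2 units in hBD-2 mice 1 to 4, and at 11.66, 11.64, 11.79 and 11.45 in PBS mice 1 to 4. All 4 hBD-2 mice lay above all 4 PBS mice, but hBD-2 4 and PBS 3 almost touched. Means were 11.97 ± 0.18 in hBD-2 mice and 11.63 ± 0.14 in PBS mice (SD, n = 4 each), a difference of 0.33 (SE 0.11, 95% interval 0.097 to 0.57, adjusted p = 0.266 by limma). Without hBD-2 1 and hBD-2 3 it was 0.18 (95% interval -0.070 to 0.43). RNA from whole tissue cannot tell fewer cells of a type from less RNA per cell, here and for every gene below.

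Slc26a2, a sulfate transporter that also exchanges chloride, stood at 10.90, 10.51, 10.77 and 10.43 log2 units in hBD-2 mice, and at 10.35, 10.19, 10.56 and 10.19 in PBS mice. The same pair of hBD-2 mice, 1 and 3, was highest, and the other hBD-2 mice lay below PBS 3. The difference was 0.33 (SE 0.12, adjusted p = 0.343 by limma), and 0.15 without the pair.

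Slc9a3, the sodium/proton exchanger that works beside Slc26a3 in salt absorption, stood at 12.15, 11.97, 12.05 and 12.19 log2 units in hBD-2 mice, and at 12.11, 12.08, 12.21 and 11.88 in PBS mice. The groups covered the same range. The difference was 0.019, with a 95% interval of -0.18 to 0.22 (adjusted p = 0.951 by limma). It was 0.010 without the pair. Over single mice left out it ran from -0.045 without PBS 4 to 0.066 without PBS 3, and it was also below 0 without hBD-2 1 or hBD-2 4.

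The 3 carbonic anhydrases had 3 different patterns over the mice. Car4, which is anchored on the luminal surface of colonocytes, stood at 11.05, 10.97, 11.12 and 10.59 log2 units in hBD-2 mice, and at 10.58, 10.49, 10.68 and 10.43 in PBS mice. Mice hBD-2 1, 2 and 3 lay above every PBS mouse, whereas hBD-2 4 lay between PBS 1 and PBS 3. Means were 10.93 ± 0.24 in hBD-2 mice and 10.54 ± 0.11 in PBS mice (SD, n = 4 each). The difference was 0.39 (SE 0.12, 95% interval 0.13 to 0.65, adjusted p = 0.242 by limma), and 0.24 without hBD-2 1 and hBD-2 3.

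Car2, a cytosolic carbonic anhydrase of high activity, stood at 11.92, 11.36, 11.93 and 11.27 log2 units in hBD-2 mice, and at 11.37, 11.25, 11.57 and 11.34 in PBS mice. Mice hBD-2 1 and hBD-2 3 were alone at the top, and the other 2 hBD-2 mice lay within the PBS range. The difference was 0.24 (95% interval -0.11 to 0.59, adjusted p = 0.581 by limma), and it was 0.14 without either hBD-2 1 or hBD-2 3 and -0.067 without both.

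Car1, the cytosolic form abundant in colon, stood at 12.11, 12.84, 12.20 and 12.71 log2 units in hBD-2 mice, and at 12.70, 12.76, 12.52 and 12.15 in PBS mice. Here hBD-2 1 and hBD-2 3 were low, together with PBS 4, and hBD-2 2 was the highest of the 8. The difference was -0.067 (95% interval -0.48 to 0.34, adjusted p = 0.910 by limma). It was 0.24 without the pair, and over single mice left out it ran from -0.19 without PBS 4 to 0.051 without hBD-2 1. It was also above 0 when only PBS 2 or only hBD-2 3 was omitted. Car1 and Car2 are close neighbours on chromosome 3, in the order Car13, Car1, Car3, Car2. Of the genes between and beside them, Car13 differed by -0.023 (95% interval -0.19 to 0.15) and Car3 by 0.033 (95% interval -1.13 to 1.20).

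Slc5a8, the sodium-coupled transporter of short-chain fatty acids, varied more between mice. It stood at 9.98, 9.68, 9.68 and 9.25 log2 units in hBD-2 mice, and at 9.43, 8.68, 9.61 and 9.41 in PBS mice. PBS 2 was the lowest and hBD-2 1 the highest, with the rest overlapping. Means were 9.65 ± 0.30 in hBD-2 mice and 9.28 ± 0.41 in PBS mice (SD, n = 4 each), a difference of 0.36 with a 95% interval of -0.093 to 0.82 (adjusted p = 0.516 by limma). Without PBS 2 it was 0.16, and without hBD-2 1 and hBD-2 3 it was 0.18.

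Slc16a1, the proton-coupled monocarboxylate transporter of butyrate and lactate, varied least of the 10, with a range of 0.18 log2 units over the 8 mice. It stood at 10.42, 10.33, 10.40 and 10.42 log2 units in hBD-2 mice, and at 10.33, 10.39, 10.43 and 10.25 in PBS mice. The groups overlapped and the difference was 0.047 (95% interval -0.11 to 0.20, adjusted p = 0.827 by limma), and 0.028 without the pair. Leaving out PBS 4 gave 0.013 and leaving out PBS 3 gave 0.073.

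Cftr, the cyclic AMP-regulated chloride and bicarbonate channel, stood at 9.47, 9.65, 9.80 and 9.58 log2 units in hBD-2 mice, and at 9.49, 9.50, 9.79 and 9.28 in PBS mice. The highest mice of the groups, hBD-2 3 and PBS 3, were level. The difference was 0.11 (95% interval -0.15 to 0.36, adjusted p = 0.744 by limma). It was 0.029 without PBS 4, 0.050 without hBD-2 3 and 0.20 without PBS 3.

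Clic6, of the chloride intracellular channel family, stood at 5.96, 5.20, 6.12 and 5.66 log2 units in hBD-2 mice, and at 5.06, 4.80, 4.84 and 5.04 in PBS mice. Every hBD-2 mouse lay above every PBS mouse, with hBD-2 2 nearest to them. Means were 5.74 ± 0.40 in hBD-2 mice and 4.93 ± 0.14 in PBS mice (SD, n = 4 each). The difference was 0.80 (SE 0.17, 95% interval 0.42 to 1.19, adjusted p = 0.133 by limma). It was 0.50 (95% interval 0.17 to 0.83) without hBD-2 1 and hBD-2 3. Without hBD-2 2 alone it was 0.98 and passed (adjusted p = 0.0497), which was the only call for any of the 10 genes in the 19 alternative settings. The signal lies low on the array, and whether it is above background cannot be read from these values.

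**Figure D2:**
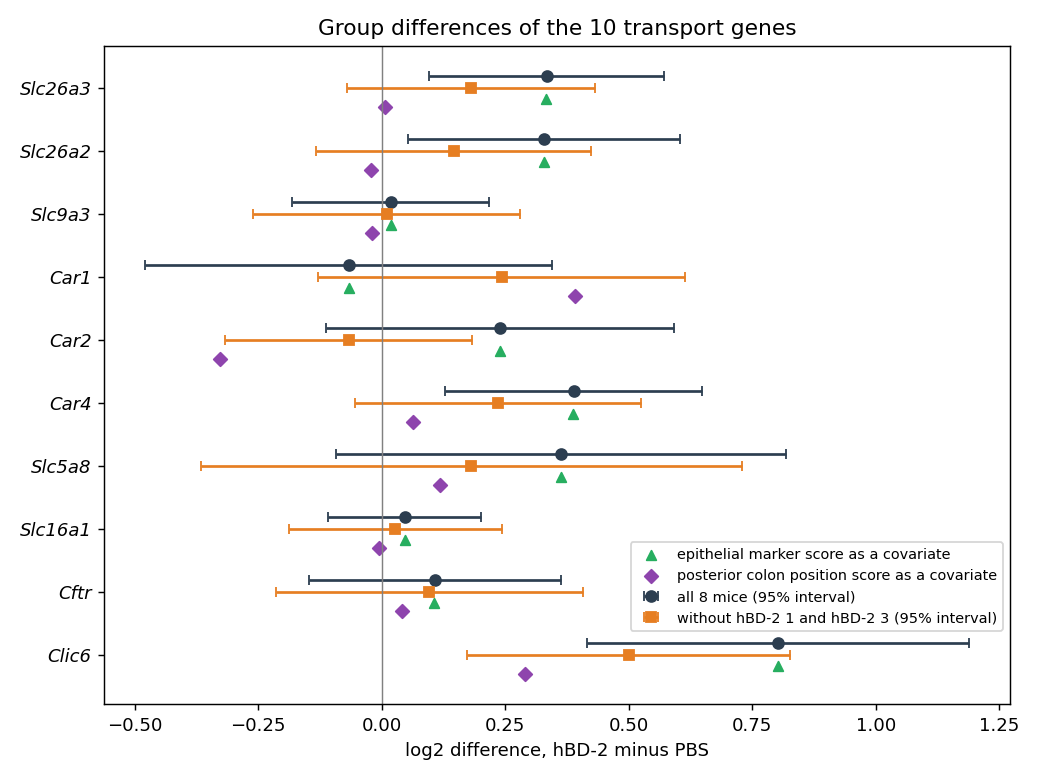
The horizontal axis gives the log2 difference, hBD-2 minus PBS, for each of the 10 genes. Circles are all 8 mice and squares leave out hBD-2 1 and hBD-2 3, both with 95% intervals; triangles and diamonds are fits with the epithelial marker score or the posterior colon position score as a covariate. Clic6 alone has an interval above 0 in both the circles and the squares, and Car1 and Car2 change sign between them.

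Marker lists for the cells of the tissue were read on the same arrays, as the mean over a list after centring each gene on its mean over the 8 mice. The 12 epithelial markers barely moved, at -0.044 to 0.038 in hBD-2 mice and -0.031 to 0.052 in PBS mice. Of the 12, 0 had an unadjusted p under 0.05, where 5.85% of all genes were higher and 5.98% lower at such a p. The groups were separated in 1 of the 12, Vil1, which was higher in hBD-2 mice by 0.11, against 2.8% of all genes. In the other direction 0 were separated, against 3.6%. The score averaged 0.00016 in hBD-2 mice and -0.00016 in PBS mice, so that a fit with it as a covariate could not move the differences between groups and tests nothing about them.

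The 12 leukocyte markers were lower in hBD-2 mice, at -0.37 to -0.035 against 0.059 to 0.23 in PBS mice, with 6 of 12 lower at an unadjusted p under 0.05, against 5.98% of all genes. The 11 stromal and muscle markers measured were at -0.43 to 0.074 in hBD-2 mice and 0.11 to 0.28 in PBS mice. Of these 11, 6 were lower at such a p, against the same 5.98%. The 6 were the stromal genes Col1a1, Col1a2, Col3a1, Dcn, Lum and Vim. The stromal gene Pdgfrb, at -0.24, had no such p. The muscle genes Acta2, Myh11, Tagln and Des had none either, at -0.17, -0.22, -0.21 and 0.011, although Acta2 separated the groups. Without hBD-2 1 and hBD-2 3, 6 of the 11 were again lower at such a p, against 5.48% of all genes. They then included the muscle gene Tagln at -0.23 and not the stromal gene Dcn at -0.12. In both lists 0 passed an adjusted p of 0.05 by limma. The part of these shifts in the differences of the transport genes was not tested.

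Position along the colon was read from 8 Hox genes of the posterior body axis. Their mean was 0.40, 0.030, 0.41 and -0.020 in hBD-2 mice 1 to 4, and -0.19, -0.14, -0.21 and -0.29 in PBS mice 1 to 4. In this mean the groups did not overlap, and the highest mice were hBD-2 1 and hBD-2 3, the pair that was also highest for Slc26a3, Slc26a2, Car2, Car4 and Clic6. The single genes did not share that pattern. Hoxb13 stood at 9.06, 5.11, 9.32 and 5.22 log2 units in hBD-2 mice, against 4.73, 5.14, 7.22 and 6.76 in PBS mice, so that it marked the pair while hBD-2 2 and hBD-2 4 lay below PBS 3 and PBS 4. Hoxd13 was likewise high in the pair alone, at 6.20 and 6.03 log2 units. Hoxa11 was lowest in the pair, at 6.72, 7.87, 6.97 and 8.00 log2 units over hBD-2 mice 1 to 4, against 7.97, 8.02, 7.61 and 7.39 in PBS mice. Hoxd10 was also lower in the pair than in the other hBD-2 mice. Mean levels of Hoxd9, Hoxd10, Hoxd11, Hoxd12 and Hoxd13 were low, at 4.97, 4.87, 5.90, 5.66 and 4.79 log2 units. Whether these signals are above background cannot be read from these values. Hoxb13, Hoxa11 and Hoxa13 had higher means, at 6.57, 7.57 and 8.12. Of the 8 genes 1, Hoxd12, separated the groups and had an unadjusted p under 0.05, higher in hBD-2 mice, and the other 7 overlapped. Over all genes 2.8% were separated and 5.85% had such a p in that direction. With this score as a covariate 0 of the 10 transport genes had an unadjusted p under 0.05 in either direction. Of all 19505 genes 2739 had such a p in that fit, and 8.5% had it with a higher mean in hBD-2 mice. Slc26a3 was then at 0.0066, Slc26a2 at -0.021, Car4 at 0.064 and Clic6 at 0.29. Because the mean separates the groups, treatment and this score cannot be told apart in these 8 mice, and whether the score stands for colon position was not tested.

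**Figure D3:**
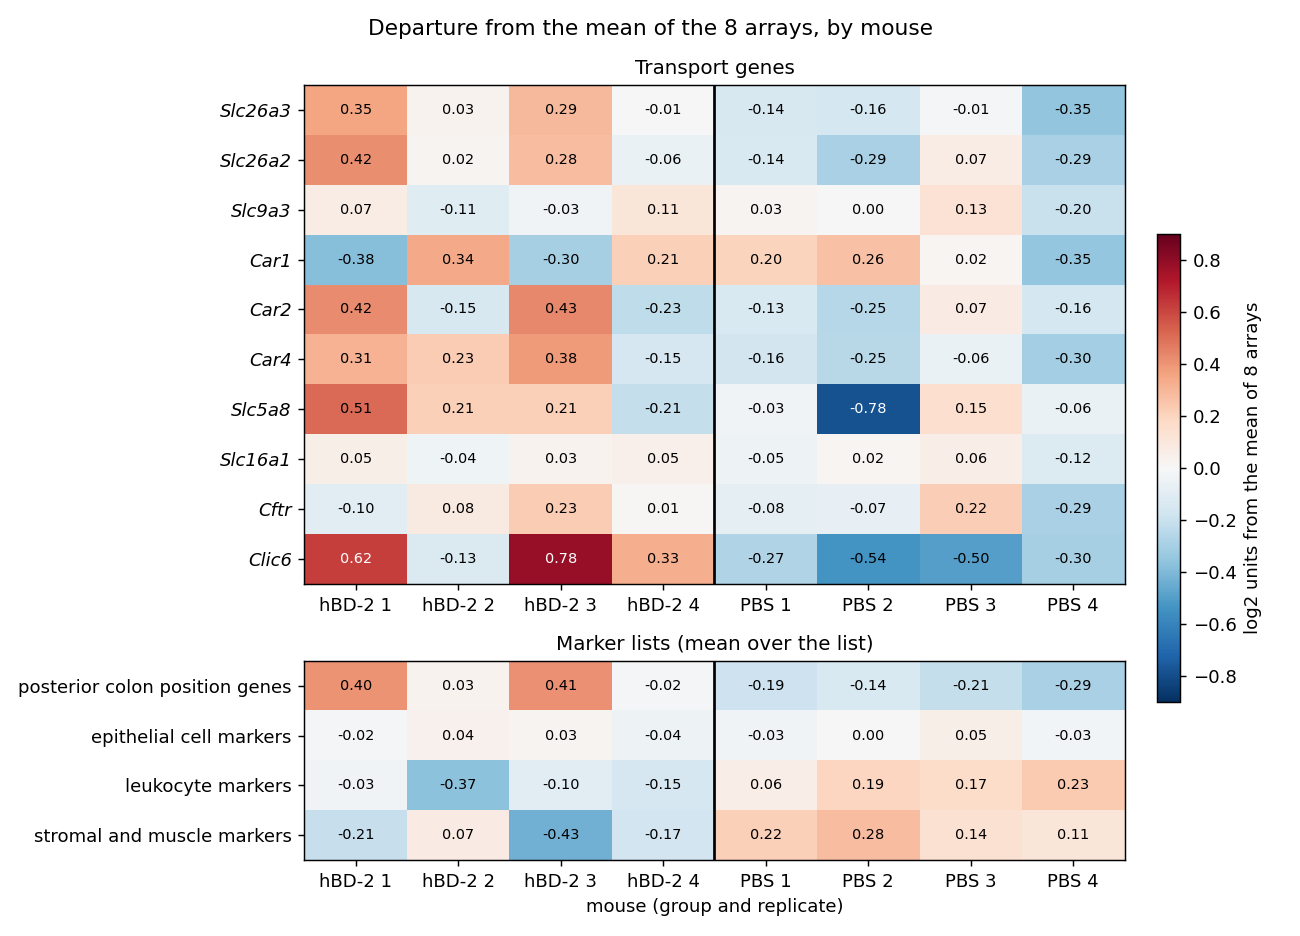
Columns are the 8 mice, hBD-2 left of the line and PBS right of it. Rows are the 10 transport genes and the means of 4 marker lists, and each cell gives log2 units from the mean of the 8 arrays (red higher, blue lower). Mice hBD-2 1 and hBD-2 3 are red for Slc26a3, Slc26a2, Car2, Car4 and Clic6 and for the mean of the position genes, and blue for Car1, while the epithelial row stays between -0.044 and 0.052.

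For the 2 genes with a range over 1 log2 unit, the genes with the most similar profile over the 8 mice were found by the root mean square distance between mean-centred values. Nearest to Clic6 were Selenbp2 at 0.15 log2 units, the mucosal chemokine gene Ccl28 at 0.18 and the glycosyltransferase gene B4galnt3 at 0.19. Ccl28 stood at 9.41, 8.42, 9.31 and 8.59 log2 units in hBD-2 mice and at 8.32, 8.05, 8.36 and 8.54 in PBS mice, so that hBD-2 1 and hBD-2 3 again stood out. Nearest to Slc5a8 were Ndrg4 at 0.10, Srgap1 at 0.14 and Zfp239 at 0.16, and each was lowest in PBS 2 of the 4 PBS mice, as Slc5a8 was. These distances are a description over mice that also differ in group.

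Related transporters gave a background for the 10 genes, and none of their members passed an adjusted p of 0.05. Of 13 further anion exchangers and bicarbonate transporters, 1 was higher and 1 lower in hBD-2 mice at an unadjusted p under 0.05. Over all genes the shares were 5.85% higher and 5.98% lower. The median difference of the 13 was 0.055. The higher one was Slc4a4, the sodium bicarbonate cotransporter of the basolateral membrane. It stood at 8.98, 8.58, 9.05 and 8.20 log2 units in hBD-2 mice, against 8.25, 8.14, 8.55 and 7.91 in PBS mice, with the same pair on top. Its difference was 0.49 (SE 0.19, adjusted p = 0.358 by limma) and 0.18 without the pair. Slc4a10, best known from neurons, was at -0.25 and separated between the groups, at a low mean level of 4.80 log2 units. Whether that signal is above background cannot be read from these values. Slc4a5 and Slc4a3 were at 0.19 and 0.12 (0.070 and 0.23 without the pair). Slc26a4, which lies near Slc26a3 on chromosome 12, was at 0.10 (95% interval -0.16 to 0.36).

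Of 11 further sodium/proton exchangers and their scaffolds, 0 were higher and 2 lower at that p, against 5.85% and 5.98% of all genes. Those were the scaffold gene Slc9a3r2 at -0.22 and the endosomal exchanger Slc9a9 at -0.29. The scaffold Slc9a3r1, which holds Slc9a3 and Cftr at the brush border, was at 0.17 (adjusted p = 0.436 by limma, 0.11 without the pair) and Slc9a8 at 0.11. Of 13 other carbonic anhydrases, 0 were higher and 0 lower at that p over all 8 mice, against the same shares. The lowest p-values were those of Car9 at 0.26, Car10 at 0.22, Car7 at -0.15 and Car11 at 0.20. Mean levels of Car10, Car7 and Car11 were low, at 5.95, 5.37 and 5.70 log2 units. Whether they are above background cannot be read from these values. Without hBD-2 1 and hBD-2 3, 4 of the 13 had an unadjusted p under 0.05 with a higher mean in hBD-2 mice, against 7.35% of all genes. These were Car11 at 0.43, Car8 at 0.58, Car10 at 0.39 and Car12 at 0.34, of which Car8 and Car12 are named after their values were seen. In that fit 0 were higher and 1 lower of the 13 anion exchangers and bicarbonate transporters. The counts were 0 and 1 for the 11 sodium/proton genes and 2 and 3 for the 12 monocarboxylate genes below. For the 26 chloride genes below they were 3 and 1. Over all genes the shares were 7.35% higher and 5.48% lower.

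Of 12 genes that handle or sense monocarboxylates, 3 were higher and 3 lower at an unadjusted p under 0.05. Of all genes 5.85% were higher and 5.98% lower at that p. Emb encodes a membrane partner of monocarboxylate transporters. It stood at 7.11, 6.74, 7.23 and 7.36 log2 units in hBD-2 mice, against 7.97, 7.93, 7.61 and 7.60 in PBS mice, without overlap. Its difference was -0.67 (SE 0.14, adjusted p = 0.130 by limma), and -0.73 without the pair. Slc16a7, a monocarboxylate transporter of high affinity, stood at 5.15, 5.18, 5.21 and 5.26 log2 units in hBD-2 mice, against 6.13, 5.98, 5.86 and 5.41 in PBS mice, again without overlap. The difference was -0.65 (SE 0.14, adjusted p = 0.128 by limma), and -0.62 without the pair. The mean level of Slc16a7 was low, at 5.52 log2 units, and whether its signal is above background cannot be read from these values. Slc5a12, the relative of Slc5a8 with lower affinity, was at 0.25 and Slc16a5 at 0.32 (0.19 without the pair). The mean level of Slc5a12 was only 3.90 log2 units, and whether it is above background cannot be read from these values. The other 2 genes with such a p were the short-chain fatty acid receptor gene Ffar2 at 0.32 and the butyrate and niacin receptor gene Hcar2 at -0.32 (-0.20 without the pair), named after their values were seen.

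Of 26 other chloride channel and secretion genes, 1 was higher and 1 lower at that p, against 5.85% and 5.98% of all genes. The median difference of the 26 was 0.11. Kcne3 encodes the subunit that opens the potassium channel which sustains chloride secretion. It stood at 9.95, 9.91, 10.14 and 9.62 log2 units in hBD-2 mice, against 9.37, 9.47, 9.43 and 9.44 in PBS mice, without overlap. The difference was 0.48 (SE 0.10, adjusted p = 0.133 by limma), and 0.34 without the pair. The Clic6 relatives went different ways, with Clic4 at -0.20 and separated in the opposite direction. Clic5, at 11.33, 10.44, 11.19 and 10.41 in hBD-2 mice against 10.31, 10.30, 10.63 and 10.31 in PBS mice, was at 0.46 (adjusted p = 0.425 by limma) and at 0.038 without the pair. The chloride channel gene Clcn2 was at 0.20.

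**Figure D4:**
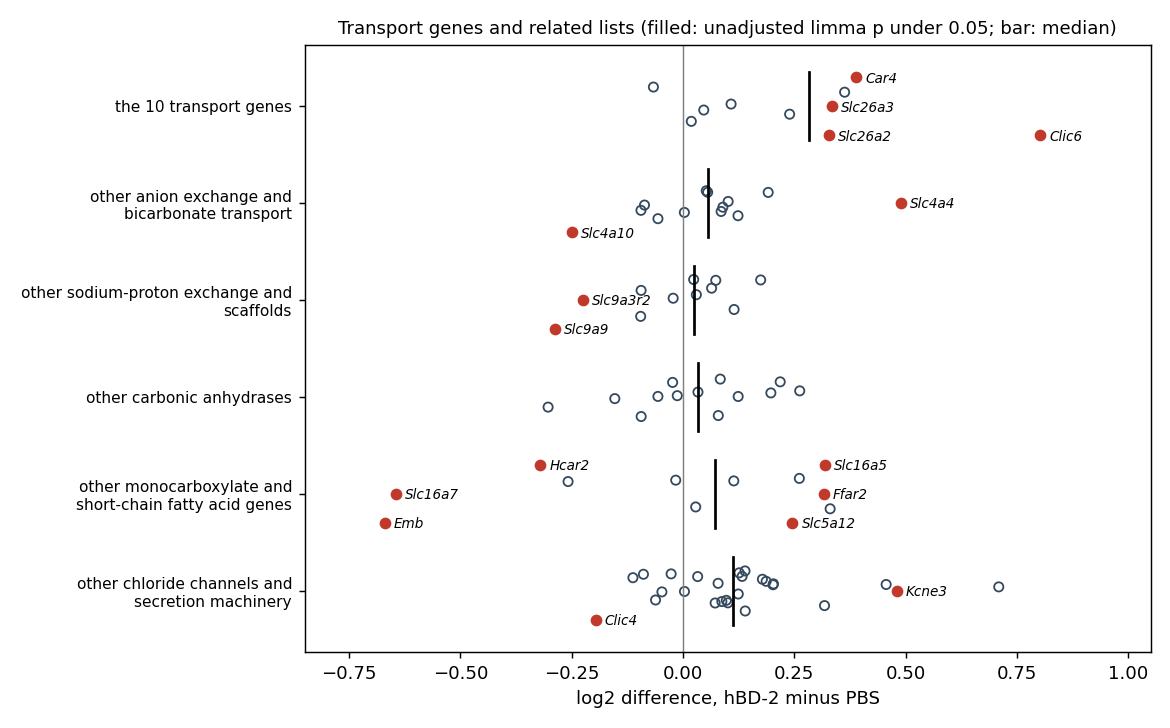
Each point is 1 gene, placed by its log2 difference, hBD-2 minus PBS (horizontal axis), in rows for the 10 transport genes and 5 lists of related genes. Filled points have an unadjusted limma p under 0.05 and are named, and the bar is the median of the list, which is 0.28 for the 10 genes and between 0.024 and 0.11 for the other lists.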

How the data were processed

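The authors deposited log2 expression values for 22203 probe sets on 8 arrays. The submitters' processing notes name oligo and RMA, with no version. RMA subtracts background, makes array distributions alike and summarises probes, so a shift common to all genes would not be seen. Per the labels' protocols, total RNA was amplified and labelled with biotin by a kit for small amounts of RNA. The number of arrays limits precision, and array medians lay between 6.77 and 6.82. The sources used here do not give the array's genome build.

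By the platform's annotation, 19572 probe sets had 1 gene symbol, 0 had several and 2631 had none. The probe set with the highest mean was kept, leaving 19505 genes. Groups and replicate numbers came from the sample titles. Differences (hBD-2 minus PBS) were tested with limma 3.58.1 (lmFit, then eBayes; R 4.3.3), two-sided, with Benjamini-Hochberg adjustment over all 19505 genes and a threshold of 0.05. The pipeline was tested on simulated data. The genes, lists and tests were chosen with earlier results of these data known. All 10 genes were named, as were the 4 genes with the lowest p of each related list and, for genes with a range over 1 log2 unit, the 3 nearest profiles. Alternatives were an intensity trend with robust prior, leaving out dim probe sets, 2 other scalings, averaging probe sets, array weights, a replicate block, leaving out arrays, and 2 covariates. Figures used matplotlib 3.10.9.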

Additional observations from a re-analysis of the deposited data

How the results depend on the processing

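Over all genes tested, 8 passed by limma. The number was 91 with an intensity trend and robust prior, 16 without the lowest 25% and 47 without the lowest 50% of probe sets, 4 with quantile normalization repeated and 68 with array weights. It was 0 without hBD-2 1 and hBD-2 3 together (2503 at an unadjusted p under 0.05) and 0 with the epithelial score as a covariate (2340), and leaving out single arrays gave 0 to 11. Of the 10 transport genes 0 passed, and leaving out single arrays gave 0 to 1, the call being Clic6 without hBD-2 2. Clic6 was not tested without the lowest 50% of probe sets. Differences of Slc26a3, Car4, Slc5a8, Cftr and Clic6 stayed above 0 in every setting in which they were tested, but some came close to 0. With the posterior position score as a covariate Slc26a3 fell to 0.0066, Car4 to 0.064, Slc5a8 to 0.12 and Clic6 to 0.29. Cftr was lowest without PBS 4, at 0.029, and had an unadjusted p under 0.05 in 0 of 19 settings. The difference of Slc9a3 ran from -0.045 to 0.066 and that of Car1 from -0.19 to 0.051 over single arrays left out, and Slc9a3 was at -0.0014 with array weights. Without hBD-2 1 and hBD-2 3, Car1 was at 0.24 and Car2 at -0.067. With the posterior position score as a covariate, Slc26a2 was at -0.021, Slc9a3 at -0.020, Car1 at 0.39, Car2 at -0.33 and Slc16a1 at -0.0062. The cause of these changes was not tested. With the replicate number as a block, 0 genes passed (2566 at an unadjusted p under 0.05), and 0 of the 10 transport genes, 4 of which had an unadjusted p under 0.05. Deviations of same-numbered mice correlated at -0.15, 0.14, 0.24 and 0.045 for numbers 1 to 4, and not every mouse correlated best with its own number, so the numbers were not taken to pair the mice.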

Other observations

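Other genes of the related lists, picked after their values were seen, had their highest or lowest values in the mice hBD-2 1 and hBD-2 3. Best2, a bicarbonate channel gene of goblet cells, stood at 8.32, 5.97, 7.66 and 5.54 log2 units in hBD-2 mice and at 5.61, 5.59, 6.86 and 6.59 in PBS mice. It was high in hBD-2 1 and hBD-2 3, and intermediate in PBS 3 and PBS 4. Its difference was 0.71 (95% interval -0.57 to 1.99) over all mice and -0.41 without hBD-2 1 and hBD-2 3. Car12, a membrane carbonic anhydrase gene, went the other way, at 8.37, 9.90, 8.39 and 9.45 log2 units in hBD-2 mice and at 9.44, 9.30, 9.35 and 9.23 in PBS mice. It was lower in hBD-2 1 and hBD-2 3 than in every other mouse, with a difference of -0.30 (95% interval -0.98 to 0.37) over all mice. Prkg2, the kinase gene through which guanylin signals to Cftr, was likewise lowest in hBD-2 1 and hBD-2 3, at 5.71 and 6.24 log2 units. It stood at 7.45 and 6.96 in hBD-2 2 and hBD-2 4, against 6.68, 6.49, 6.64 and 6.43 in PBS mice. Its difference was 0.033 over all mice. When that pair was omitted it was 0.65 (adjusted p = 0.170 by limma).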
